A study of Mus musculus with 8 samples.

Results

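The genes examined here belong to the NF-kB pathway, the signalling route by which cells answer inflammatory cytokines, together with receptors that feed it and genes it or its partner pathways switch on. They were chosen by name, as all probe sets of the array whose platform annotation gives one of 10 gene symbols: Tnfrsf1a, Il1r1, Nfkb1, Nfkb2, Rela, Relb, Nfkbia, Tnfaip3, Icam1 and Socs3. Of these, 9 genes were each the sole symbol of at least 1 probe set, which gave 18 probe sets among 45037 and 9 genes among 18193. Nfkb1 is not analysed here. Nfkbia had 5 probe sets, Socs3 had 3, Il1r1, Nfkb2 and Tnfaip3 had 2 each, and Tnfrsf1a, Rela, Relb and Icam1 had 1 each. RNA came from pancreatic islets, the hormone-secreting cell clusters of the pancreas, of AKR/J and C57Bl/6J mice, both inbred strains, and all animals had eaten a high-fat diet for 3 months. Each strain had 4 samples, and islets of 2 mice were combined into each. Every sample had an Affymetrix array to itself, with numbers 1 to 4 in AKR/J and 5 to 8 in the other strain. The labels give no age, sex, genotype or treatment beyond strain and diet, and samples from mice on other diets are not part of the comparison. P-values measure the spread between these pools.

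NF-kB is a family of dimeric transcription factors held in the cytoplasm by inhibitor proteins of the I-kappa-B class. Tumour necrosis factor and interleukin-1, acting through their receptors, activate a kinase complex that marks the inhibitor for destruction, and the freed dimer enters the nucleus. Among the genes it switches on are its own inhibitors, so that the transcripts of Nfkbia and Tnfaip3 are commonly read as a record of recent activity, and beta cells are known to carry the interleukin-1 receptor and to respond through this route. Socs3 belongs to a neighbouring circuit, the JAK-STAT pathway, as an inhibitor induced by STAT factors.

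The start-site regions of 4 members are shown because the results below turn on these genes: the inhibitor genes Nfkbia and Tnfaip3, the cytokine-signalling inhibitor gene Socs3, and Tnfrsf1a, the member that differed between the strains. Each is the 250 bases before a RefSeq start site, 5' to 3' on the gene's own strand, in build GRCm38.p6. Capitals mark matches, on either strand, to the NF-kB consensus (the kappa B site) or to the STAT motif TTCNNNGAA. The windows are chr12:55492648-55492897 (minus strand) for Nfkbia, chr10:19015411-19015660 (minus strand) for the Tnfaip3 start site that holds matches, chr11:117969367-117969616 (minus strand) for Socs3 and chr6:125349473-125349722 (plus strand) for Tnfrsf1a.
Nfkbia: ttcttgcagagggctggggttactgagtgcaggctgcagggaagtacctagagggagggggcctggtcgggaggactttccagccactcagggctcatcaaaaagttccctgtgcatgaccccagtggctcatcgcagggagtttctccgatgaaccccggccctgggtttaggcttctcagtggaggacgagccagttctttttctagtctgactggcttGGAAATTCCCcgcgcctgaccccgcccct
Tnfaip3: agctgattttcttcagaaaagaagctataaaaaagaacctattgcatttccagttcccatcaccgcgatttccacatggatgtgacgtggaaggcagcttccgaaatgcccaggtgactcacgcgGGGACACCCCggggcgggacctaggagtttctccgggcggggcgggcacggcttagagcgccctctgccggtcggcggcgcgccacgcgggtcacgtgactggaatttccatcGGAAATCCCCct
Socs3: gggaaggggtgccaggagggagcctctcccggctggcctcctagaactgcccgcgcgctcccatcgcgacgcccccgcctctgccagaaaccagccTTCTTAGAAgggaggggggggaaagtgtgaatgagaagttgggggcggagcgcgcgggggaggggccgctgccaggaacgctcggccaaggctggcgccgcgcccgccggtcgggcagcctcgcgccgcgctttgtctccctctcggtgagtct
Tnfrsf1a: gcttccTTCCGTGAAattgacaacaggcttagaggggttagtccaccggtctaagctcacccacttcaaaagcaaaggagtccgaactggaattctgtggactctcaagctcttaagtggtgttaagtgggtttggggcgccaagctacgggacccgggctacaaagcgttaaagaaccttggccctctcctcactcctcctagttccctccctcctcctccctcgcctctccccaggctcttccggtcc
The Nfkbia window held 1 kappa B match, which begins 29 bases before the start site, and the Tnfaip3 window held 2, beginning 125 and 12 bases before it. The Socs3 and Tnfrsf1a windows each held 1 STAT match, beginning 154 and 244 bases before the start, and no capitals mark a kappa B match there. Matches to the different motifs did not overlap in these 4 windows. Of 32851 RefSeq windows of this length, 7.25% held a kappa B match and 7.02% a STAT match. In all, 8 members had a window in the table, 12 windows with alternative starts, of which 6 windows of 4 genes (Nfkbia, Tnfaip3, Nfkb2 and Il1r1) held a kappa B match. A match says only that these letters are present.

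Few of the pathway's members passed the test between the strains. Of the 8 members that could be tested, Tnfrsf1a was lower in AKR/J than in C57Bl/6J, none was higher, and 7 did not pass an adjusted p of 0.05. The test was limma's moderated test on log2 GCRMA intensity, with Benjamini-Hochberg adjustment over all 20772 probe sets that were detected on at least 4 of the 8 arrays. Over the 10891 genes tested, each by its brightest probe set, 16.3% were called and 8.53% were called lower in AKR/J, so a single call among 8 members is near that background. At the level of probe sets, 15 of the 18 were tested and 1 was called, lower in AKR/J, where 14.3% of all tested probe sets were called, 7.7% lower and 6.59% higher. By limma, 3 of the 15 had an unadjusted p under 0.05, against 30.0% of all tested probe sets. Means were lower in AKR/J for 11 of these 15 probe sets and higher for 4. Of the 11, 5 were probe sets of Nfkbia alone, and of the 4, 3 were of Socs3, so these are not independent counts. The median difference of the 8 genes was -0.22 on the log2 scale against 0.00012 over all genes tested.

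**Figure D1:**
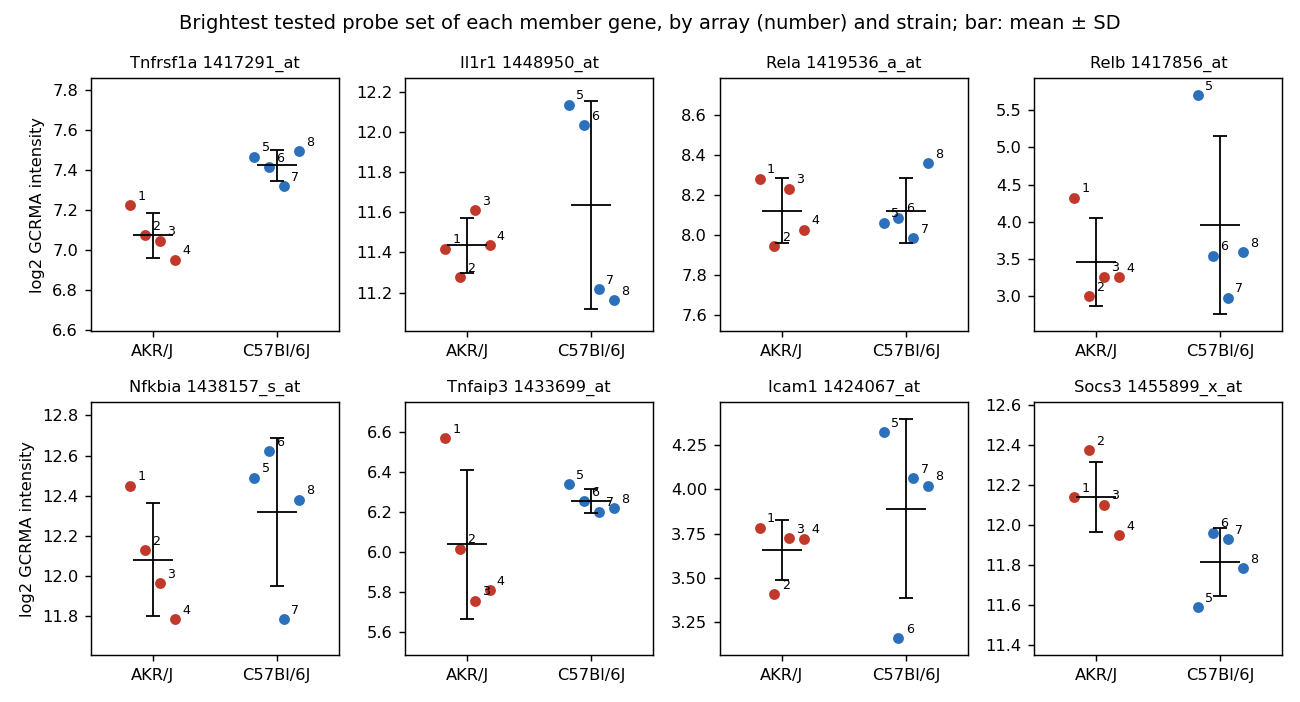
Log2 GCRMA intensity (vertical axes, a separate scale in each panel) of the brightest tested probe set of 8 member genes, with a point per array labelled by its number, for AKR/J (red, arrays 1 to 4) and C57Bl/6J (blue, arrays 5 to 8); horizontal bars and whiskers are the mean ± SD of 4 arrays. The strains separate completely for Tnfrsf1a only, and in Il1r1 arrays 5 and 6 stand above arrays 7 and 8.

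Tnfrsf1a encodes the main receptor for tumour necrosis factor, the one whose intracellular death domain starts NF-kB signalling. Its single probe set, 1417291_at, read 7.22, 7.07, 7.05 and 6.95 on AKR/J arrays 1 to 4 and 7.46, 7.41, 7.32 and 7.49 on C57Bl/6J arrays 5 to 8 (log2 GCRMA intensity). Every AKR/J array thus lay below every C57Bl/6J array, a separation that 25.1% of the genes tested showed in either direction. AKR/J averaged 7.07 ± 0.11 and C57Bl/6J averaged 7.42 ± 0.08 (SD, n = 4 arrays per strain), so the level was 1.27-fold lower in AKR/J, with a log2 difference of -0.35 (95% interval -0.53 to -0.17; limma adjusted p = 0.0227). The call was lost when any 1 of 5 arrays was left out: array 2 (limma adjusted p = 0.0572), array 4 (0.0603), array 5 (0.058), array 6 (0.051) and array 8 (0.0531). Over all genes tested the share called also fell, from 16.3% with all arrays to between 11.2% and 15.3% with 1 left out. The Tnfrsf1a difference itself stayed between -0.31 and -0.40 whichever array was removed. On the deposited per-array Signal, an intensity made by another method, the values were 372, 322, 310 and 318 in AKR/J and 389, 376, 329 and 411 in C57Bl/6J. There the strains overlapped, because array 1 lay above array 7, and the quantile-normalized log2 difference was -0.17 (limma adjusted p = 0.378). On that scale 12.1% of genes and 10.9% of probe sets were called, and no member was.

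In whole islets, fewer cells of a type and less RNA per cell cannot be told apart, and markers of other cell types also differed between the strains. Of 15 tested macrophage markers, 9 were lower in AKR/J, 0 were higher and 6 did not pass, with a median log2 difference of -0.68. Their summed intensity lay between 2065 and 2598 on the AKR/J arrays, against 3623 to 4713 on the others. Of the called macrophage genes, the ones named are the complement gene C1qc (3.50-fold lower) and the protease gene Ctss (2.46-fold lower). Their log2 differences were smaller on the quantile-normalized Signal, at -1.10 and -0.75 against -1.81 and -1.30 in GCRMA. C1qa, another complement gene of the list, did not differ (-0.0071, limma adjusted p = 0.973) and is named after its values were seen. Of 10 endothelial markers, 4 were higher in AKR/J, 0 were lower and 6 did not pass, with a median of 0.32 and sums of 5481 to 6395 against 5026 to 5588. Ramp2 (1.66-fold) and Cdh5 (1.62-fold) are the ones named, and of the 4 called genes only Ramp2 passed on the quantile-normalized Signal (limma adjusted p = 0.0105). Of the 9 macrophage calls 6 passed on that scale, and Lyz2, Tyrobp and Ptprc did not. All 12 tested acinar markers were lower in AKR/J (median -0.65), among them Pnliprp2 (2.97-fold) and Cuzd1 (3.11-fold), with sums of 211598 to 241202 against 343568 to 354892. On the quantile-normalized Signal 7 of these 12 did not pass, and Ctrb1 had a difference of the other sign (0.085; limma adjusted p = 0.595). All 8 islet endocrine genes with a probe set were detected often enough to be tested, with summed intensities of 189125 to 205140 against 168270 to 180791; Ppy was higher in AKR/J and Slc2a2 lower. The Ppy call was lost under 8 of 17 alternatives, with array 1, 2, 3, 6, 7 or 8 left out among them (limma adjusted p up to 0.084 over these). Of 7 stromal markers Rgs5 was higher and Dcn lower (median -0.11, sums 7848 to 9720 against 6156 to 6832). Rgs5, at a mean of 12.23 against 10.81, was the brightest of them in AKR/J and weighs most in that sum. Means were lower in AKR/J for 5 of the 7, so the sums do not describe the list as a whole. The Dcn call was lost under 6 of 17, with array 2, 3, 5, 6 or 8 left out among them (limma adjusted p up to 0.0775 over these). Of 4 tested lymphocyte markers none passed (median -0.39, sums 57.6 to 157 against 120 to 299). Of the macrophage list, Itgam missed the detection filter, as did Cd3e, Cd3g, Cd2 and Cd79b of the lymphocyte list. The part of these shifts in the Tnfrsf1a difference, and in the values that follow, was not tested.

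Il1r1 encodes the signalling receptor for interleukin-1. Its probe set 1448950_at read 11.42, 11.28, 11.61 and 11.44 in AKR/J and 12.14, 12.04, 11.22 and 11.16 in C57Bl/6J. The C57Bl/6J arrays fell into pairs, with arrays 5 and 6 above every AKR/J array and arrays 7 and 8 below every AKR/J array. The means were 11.44 ± 0.14 and 11.64 ± 0.52 (SD, n = 4 each), and the difference of -0.20 had a 95% interval of -0.75 to 0.34 (limma adjusted p = 0.612). The Signal showed the same pairs, at 3667 and 3249 on arrays 5 and 6 and 2177 and 2117 on arrays 7 and 8, against 2346 to 2608 in AKR/J. The labels name no batch, but an earlier look at these data set arrays 1, 2, 5 and 6 apart from 3, 4, 7 and 8. With arrays 1, 2, 5 and 6 alone the log2 difference was -0.74, and with arrays 3, 4, 7 and 8 alone it was 0.33, so its direction depended on which C57Bl/6J pair was used; the difference between these values was not tested. The other Il1r1 probe set, 1459777_at, was not detected on any array and was not tested.

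Of the transcription factor subunits, Rela encodes p65, the activating partner of the classical dimer. Its probe set 1419536_a_at read 8.28, 7.94, 8.23 and 8.03 in AKR/J and 8.06, 8.09, 7.98 and 8.36 in C57Bl/6J. The strains overlapped throughout, with means of 8.12 ± 0.16 in both (SD, n = 4 each), and the 95% interval of the difference ran from -0.26 to 0.26 on the log2 scale (limma adjusted p = 0.997). Relb encodes a subunit of the alternative dimer. Its probe set 1417856_at was detected on 1 of 4 AKR/J and 3 of 4 C57Bl/6J arrays and read 4.33, 3.00, 3.26 and 3.25 against 5.70, 3.54, 2.98 and 3.59. Array 5 stood far above the rest and array 1 above the other AKR/J arrays. The difference of -0.49 (95% interval -1.82 to 0.83; adjusted p = 0.61, limma) turned to 0.090 without array 5. Nfkb2, whose product p100 is processed to the partner of RelB, was not tested. Its probe set 1429128_x_at was detected on 2 of 4 AKR/J and 0 of 4 C57Bl/6J arrays, at 4.28, 3.41, 3.70 and 3.99 against 3.46, 3.40, 3.46 and 3.54, and 1425902_a_at was not detected on any array. On array 5, where Relb was highest, 1425902_a_at read 2.91 against 2.38 to 2.41 elsewhere, without being detected. The brighter 1429128_x_at showed no rise there, at 3.46 against 3.40 to 3.54 on the other C57Bl/6J arrays.

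**Figure D2:**
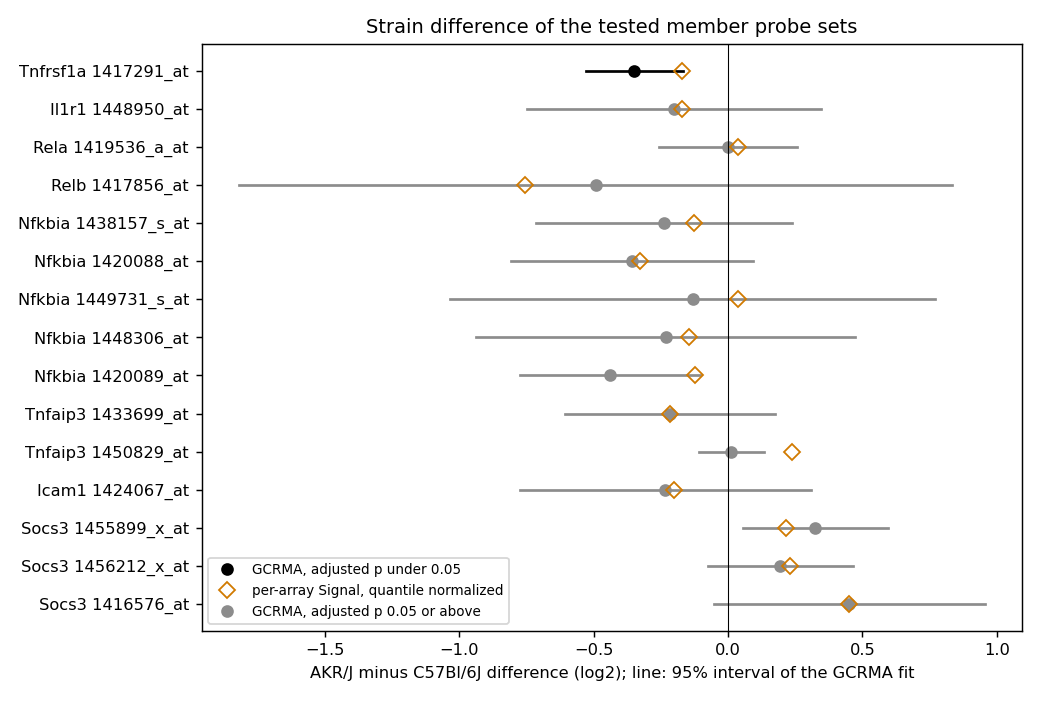
AKR/J minus C57Bl/6J difference on the log2 scale (horizontal axis) for the 15 tested member probe sets (rows): circles and lines are the difference and 95% interval from log2 GCRMA intensity, black where the adjusted p is under 0.05, and open diamonds the difference from the quantile-normalized per-array Signal. Only the Tnfrsf1a circle is black, and all 3 Socs3 circles lie right of 0 while all 5 Nfkbia circles lie left of it.

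Nfkbia encodes I-kappa-B-alpha, the inhibitor that NF-kB itself induces. Its brightest probe set, 1438157_s_at, read 12.45, 12.13, 11.96 and 11.79 in AKR/J and 12.49, 12.62, 11.78 and 12.38 in C57Bl/6J. The strains overlapped, since array 7 of C57Bl/6J was the lowest and array 1 of AKR/J stood below only arrays 5 and 6. The means were 12.08 ± 0.28 and 12.32 ± 0.37 (SD, n = 4 each), with a difference of -0.24 (95% interval -0.71 to 0.24; limma adjusted p = 0.484). For each of the 5 Nfkbia probe sets the AKR/J mean was the lower one, with log2 differences from -0.13 to -0.44, and none passed. The nearest to the threshold was 1420089_at, with a difference of -0.44 (95% interval -0.77 to -0.10; limma adjusted p = 0.0832), which passed without C57Bl/6J array 6 (adjusted p = 0.0474). It read 5.28, 5.46, 4.94 and 5.11 against 5.63, 5.33, 5.74 and 5.84. On the Signal its difference was -0.12 (limma adjusted p = 0.787). The probe set 1449731_s_at had a log2 difference of 0.038 with the quantile-normalized Signal, against -0.13.

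Tnfaip3 encodes A20, a ubiquitin-editing enzyme that shuts the pathway off upstream of the kinase complex. Its probe set 1433699_at read 6.57, 6.02, 5.76 and 5.81 in AKR/J and 6.34, 6.25, 6.20 and 6.22 in C57Bl/6J. Array 1 was the highest of all 8 and the other AKR/J arrays were the lowest. The AKR/J SD was 0.37 and the C57Bl/6J SD 0.06 (n = 4 each), and the difference of -0.22 (95% interval -0.61 to 0.18) did not pass (limma adjusted p = 0.437). Without array 1 the difference was -0.39 and passed (adjusted p = 0.0336). The other Tnfaip3 probe set, 1450829_at, lay between 2.50 and 2.54 on every array in GCRMA, near the bottom of its range, although it was detected on 3 of 4 arrays of each strain and its Signal ran from 24.1 to 64.0. Its GCRMA difference of 0.012 did not pass (limma adjusted p = 0.904) and was -0.0089 with quantile normalization.

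Icam1, an adhesion molecule of endothelial and immune cells and a standard NF-kB target, was dim. Its probe set 1424067_at was detected on 3 of 4 arrays of each strain and read 3.78, 3.41, 3.72 and 3.72 in AKR/J and 4.32, 3.16, 4.06 and 4.02 in C57Bl/6J. Of the C57Bl/6J arrays, 5, 7 and 8 lay above every AKR/J array and 6 lay below them all. The difference was -0.23 (95% interval -0.77 to 0.31; limma adjusted p = 0.55).

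Socs3 encodes a suppressor of cytokine signalling that binds cytokine receptors and JAK kinases, and the AKR/J mean was the higher one for all 3 of its probe sets. The brightest, 1455899_x_at, read 12.14, 12.37, 12.10 and 11.95 in AKR/J and 11.59, 11.96, 11.93 and 11.79 in C57Bl/6J. The groups overlapped by a small margin, AKR/J array 4 against C57Bl/6J array 6. The means were 12.14 ± 0.18 and 11.82 ± 0.17 (SD, n = 4 each), a difference of 0.32 (95% interval 0.055 to 0.59) that did not pass after adjustment (limma adjusted p = 0.106). The other Socs3 probe sets, 1456212_x_at and 1416576_at, differed by 0.19 (adjusted p = 0.309) and 0.45 (adjusted p = 0.211, limma). On the Signal the 3 differences were 0.21, 0.23 and 0.45, none of which passed (adjusted p from 0.19 to 0.357). The suffix _x_at marks probe sets whose probes can bind other transcripts too.

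Several members varied more between arrays of one strain than most genes did. The within-strain SD, pooled over both strains, was 0.94 for Relb, 0.38 for Il1r1, 0.38 for Icam1, 0.33 for Nfkbia and 0.27 for Tnfaip3, against a median of 0.18 over the 10891 genes. Relb and Icam1 were dim and missed detection on some arrays of each strain, so their SDs describe values near background. It was 0.17 for Socs3, 0.16 for Rela and 0.096 for Tnfrsf1a. Tnfrsf1a, the member with a call, was therefore also the member with the smallest spread.

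The spread of Nfkbia was shared by its probe sets. With strain means subtracted, 4 of its 5 probe sets were high and low on the same arrays, with r from 0.841 to 0.992 for the pairs among 1438157_s_at, 1420088_at, 1448306_at and 1449731_s_at. They were high on arrays 1 and 6 and low on arrays 4 and 7, so that high and low arrays occurred in both strains. On array 7, 1449731_s_at was 1.18 below the C57Bl/6J mean on the log2 scale, 1438157_s_at 0.53 below and 1448306_at 0.74 below. The fifth, 1420089_at, did not follow in GCRMA (r = -0.08 with 1438157_s_at) but did on the Signal (r = 0.808). These correlations are descriptions over 8 arrays; the points share array-wide normalization and the subtraction of the strain means.

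**Figure D3:**
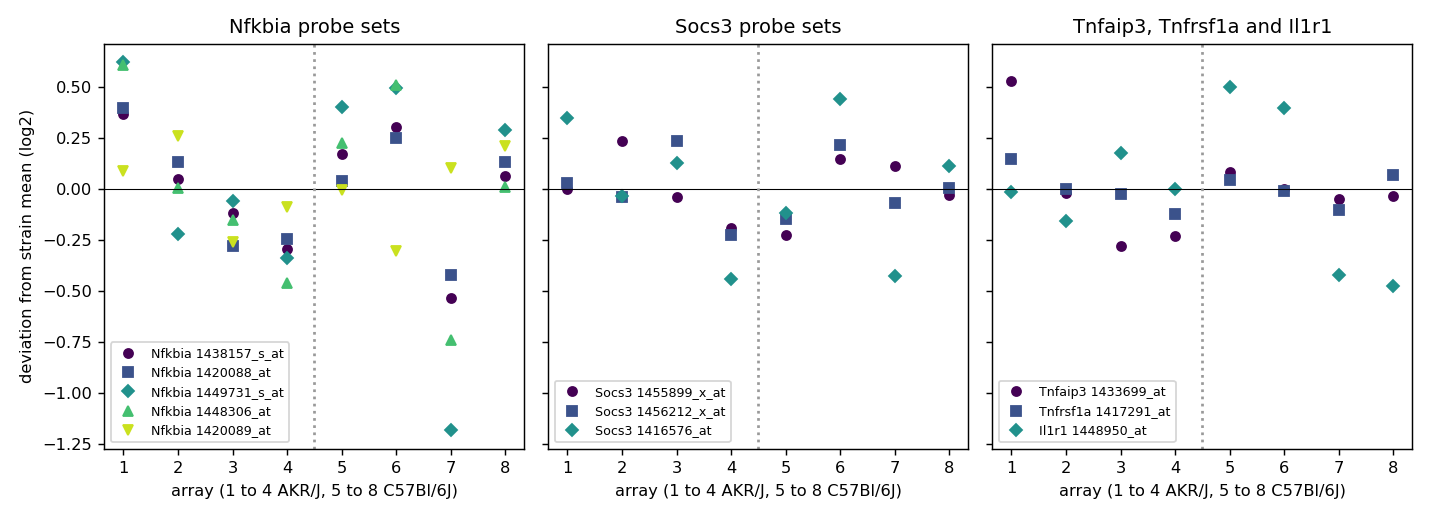
Deviation of each array from its strain mean in log2 GCRMA intensity (vertical axis) by array (horizontal axis; 1 to 4 AKR/J, 5 to 8 C57Bl/6J, dotted line between them) for 5 Nfkbia probe sets (left), 3 Socs3 probe sets (middle) and 1 probe set each of Tnfaip3, Tnfrsf1a and Il1r1 (right). Of the Nfkbia probe sets, 4 are lowest on array 7 among the C57Bl/6J arrays and highest on array 1 among the AKR/J arrays.

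Other members followed Nfkbia to different degrees. Against 1438157_s_at, r was 0.856 for Socs3 1416576_at, 0.837 for Tnfrsf1a, 0.638 for Tnfaip3 1433699_at, 0.565 for Relb, 0.491 for Il1r1, 0.417 for Rela and -0.301 for Icam1. Without arrays 7 and 4, the 2 farthest from the median of Nfkbia, r was 0.838 for Tnfaip3, 0.609 for Tnfrsf1a and 0.576 for Socs3 1416576_at, so the last pair rests partly on those arrays. The other Socs3 probe sets, at 0.0418 and 0.368, did not share the pattern. On the Signal r was 0.9 for Tnfaip3, 0.847 for Tnfrsf1a and 0.723 for Socs3 1416576_at, but -0.716 for 1455899_x_at, the brightest Socs3 probe set, and -0.481 for 1456212_x_at. The Socs3 probe sets thus ran both ways against Nfkbia on that scale. Among the 77 tested genes of the wider pathway, 5 had r of at least 0.8 with Nfkbia, whereas 2.43% of all genes tested did. They were Gadd45b (r = 0.989), a stress-response gene that NF-kB induces, Nfkbiz (r = 0.94), a nuclear inhibitor-like protein of the family, the kinase gene Map3k7 (r = 0.931), and the immediate early genes Myc (r = 0.887) and Egr1 (r = 0.869). Gadd45b read 9.62, 8.69, 8.60 and 8.22 in AKR/J and 9.21, 9.64, 7.71 and 8.93 in C57Bl/6J, again highest on arrays 1 and 6 and lowest on 7. Nfkbiz read 10.68, 10.34, 9.74 and 10.01 against 11.05, 11.15, 10.07 and 10.81. Both were high on arrays 1, 5 and 6 relative to arrays 4 and 7. Without arrays 7 and 4, r was 0.972 for Gadd45b and 0.945 for Nfkbiz, and on the Signal it was 0.785 and 0.711. For Myc and Egr1 it was 0.62 each without those arrays, and on the Signal r was 0.621 for Myc, 0.785 for Egr1 and 0.555 for Map3k7. Thus none of the 5 reached 0.8 on the Signal, where Cxcl2 (r = 0.959) and Il6ra (r = 0.834) did. The share of all genes reaching 0.8 on the Signal was not worked out. In GCRMA, 1 of 8 islet endocrine genes also reached 0.8, and none of the macrophage, endothelial, acinar, stromal or lymphocyte markers did. At the other end, 586 of all 10890 genes had r of -0.8 or less. Of the wider pathway these were Il10rb (r = -0.967), a chain of the interleukin-10 receptor, and Socs5 (r = -0.875), a relative of Socs3; on the Signal their r was -0.414 and -0.705. Of the markers, 3 of 15 macrophage and 1 of 7 stromal genes were among them. Nfkbia as the reference, the threshold of 0.8 and the genes it singles out were chosen after their values were seen.

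Relb had the largest within-strain SD of the members. The genes whose arrays followed it most closely, among 10890 ranked by r with strain means subtracted over the 8 arrays, were Csf2rb2 (r = 0.987), Fras1 (0.981) and Jdp2 (0.974). Jdp2 read 5.55 on array 1 and 5.92 on array 5 and between 4.64 and 4.89 on the other 6, the same high arrays as Relb. Csf2rb2 ran only from 2.12 to 2.36 and Fras1 from 4.78 to 5.03, both also highest on arrays 1 and 5. These r are the largest picked from 10890 and rest mainly on those arrays.

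The rest of the pathway was read from lists of signal transducers, inhibitors and adaptors, other receptors, target genes, JAK-STAT and SOCS genes, and immediate early genes. Of 102 listed genes, 96 had a probe set and 77 were tested. Of these, 2 were higher in AKR/J, 5 were lower and the others did not pass, which is 9.09% called against 16.3% of all genes tested, with a median difference of -0.089. These counts rest on the brightest tested probe set. Il6st, Il13ra1, Socs5, Btg2 and Klf6 did not pass by it, but 1 other probe set of each passed in the same direction. They are named after their values were seen. Of 12 signal transducers none passed (median -0.10); the brightest were Irak1, a kinase below the interleukin-1 receptor, with a difference of 0.037 (95% interval -0.10 to 0.18), and Tab2, an adaptor of the kinase complex, with -0.084 (-0.36 to 0.19). Of 14 target genes none passed; 9 had a lower mean in AKR/J and 5 a higher one (median -0.11). The largest difference was that of Birc3, an inhibitor of cell death, at -0.86 (95% interval -1.50 to -0.23; limma adjusted p = 0.0763), whose arrays did not overlap between the strains; on the Signal it was -0.36 (adjusted p = 0.372). Csf1, a growth factor for macrophages, had -0.74 (-1.42 to -0.052; limma adjusted p = 0.14) and passed on the Signal with -0.63 (adjusted p = 0.0459). Both are named here after their values were seen. The brightest were Sod2, a mitochondrial superoxide dismutase, with 0.072 (-0.10 to 0.24), and Ier3, a survival gene, with 0.39 (0.13 to 0.65; limma adjusted p = 0.0574). Of the inflammatory products on this list, Il1b, Cxcl1 and Cxcl2 were detected on 4 of 4 arrays of each strain. Il6 was detected on 3 of 4 AKR/J and 4 of 4 C57Bl/6J arrays, and Ccl2 on 1 and 3. They too are named after their values were seen. Tnf, Ccl5, Ccl20, Cxcl9, Cxcl10, Nos2 and Sele, other well-known products of an inflamed islet or endothelium, missed the detection filter. So did Rel, the remaining activating subunit.

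**Figure D4:**
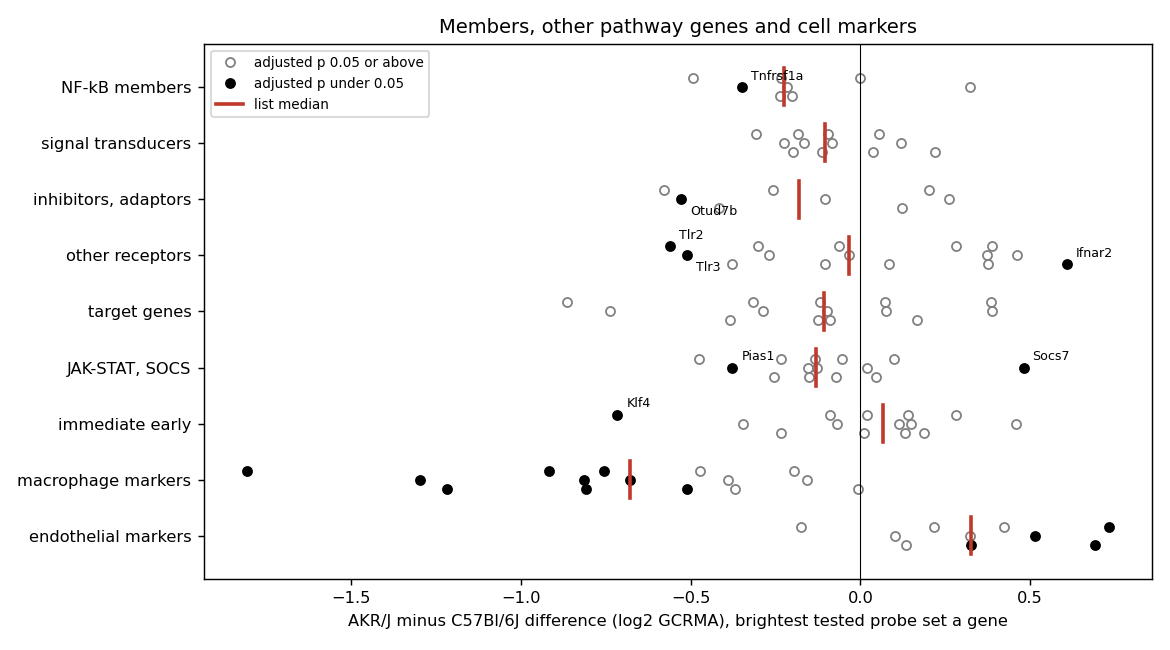
AKR/J minus C57Bl/6J difference in log2 GCRMA intensity (horizontal axis) of each tested gene, by its brightest tested probe set, in 9 lists (rows); filled circles have an adjusted p under 0.05, open circles do not, and red bars are list medians. The 7 named filled circles outside the members are Otud7b, Tlr2, Tlr3, Ifnar2, Pias1, Socs7 and Klf4, and the macrophage row lies left of 0.

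Among the other receptors, 1 of 15 was higher in AKR/J, 2 were lower and 12 did not pass (median -0.033). Ifnar2, a chain of the type I interferon receptor, read 8.66, 8.32, 8.38 and 8.41 in AKR/J and 7.79, 7.79, 7.76 and 8.003 in C57Bl/6J. The strains did not overlap, and the level was 1.52-fold higher in AKR/J (difference 0.61, 95% interval 0.39 to 0.83; limma adjusted p = 0.00451), and 0.60 on the Signal (adjusted p = 0.0414). A dimmer Ifnar2 probe set, 1440169_x_at, went the other way without passing (difference -0.32, adjusted p = 0.231). Tlr3, a receptor for double-stranded RNA, was 1.42-fold lower in AKR/J (limma adjusted p = 0.00747), at 5.19, 5.01, 5.20 and 5.12 against 5.68, 5.46, 5.62 and 5.81. Its other probe set differed by -0.094 and it did not pass on the Signal (adjusted p = 0.315). Tlr2, a receptor for bacterial lipoproteins found on macrophages, was 1.48-fold lower (adjusted p = 0.0203), at 7.37, 7.40, 6.91 and 7.40 against 7.97, 7.78, 7.74 and 7.83. It did not pass on the Signal (limma adjusted p = 0.058), without array 5 (0.0552) or with no detection filter. Of the 15 macrophage markers, 9 were lower in AKR/J as well, and their part was not tested. Il6st encodes the signalling chain shared by receptors of the interleukin-6 family. Its brightest probe set passed on the Signal, at 0.60 (limma adjusted p = 0.0261), and did not in GCRMA, at 0.37 (limma adjusted p = 0.147). Of its 4 tested probe sets, 1 other did pass in GCRMA, also higher in AKR/J. Il6st is named after its values were seen.

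Of the 8 tested inhibitors and adaptors, 1 was lower in AKR/J and 7 did not pass (median -0.18). Otud7b, a deubiquitinase that restrains the alternative branch, was 1.44-fold lower, at 6.11, 6.03, 6.09 and 6.51 against 6.82, 6.63, 6.68 and 6.72 (limma adjusted p = 0.0186). Its 3 other probe sets differed by -0.057 to -0.24 and did not pass, and the call was lost without array 1 or 2 or 5 (adjusted p up to 0.0536). On the Signal its brightest probe set differed by -0.43 (limma adjusted p = 0.0198). Of 14 JAK-STAT and SOCS genes, Socs7 was higher in AKR/J, Pias1 was lower and 12 did not pass (median -0.13). Socs7, a relative of Socs3, read 10.11, 10.06, 10.07 and 10.11 against 9.58, 9.63, 9.69 and 9.53, 1.40-fold higher in AKR/J with no overlap (difference 0.48, 95% interval 0.34 to 0.62; limma adjusted p = 0.00168). Its other probe set differed by 0.27 (adjusted p = 0.126), and on the Signal the brightest differed by 0.54 (limma adjusted p = 0.0119). Pias1, an inhibitor of activated STAT proteins, was 1.30-fold lower (adjusted p = 0.025), and another of its 3 probe sets was 1.40-fold lower (adjusted p = 0.00745, limma), but the brightest did not pass on the Signal (adjusted p = 0.457), nor without array 1, 4, 6 or 7 (up to 0.0663).

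Of 14 immediate early genes, which respond within minutes to many stimuli, 1 was lower in AKR/J and 13 did not pass, with a median of 0.067. Klf4, a transcription factor gene, read 8.76, 8.16, 8.74 and 8.79 in AKR/J and 9.12, 9.41, 9.24 and 9.54 in C57Bl/6J, 1.64-fold lower in AKR/J (limma adjusted p = 0.0224). Its other probe set differed by -0.18 and did not pass, and the call was lost without array 6 or 8 (limma adjusted p up to 0.0609) and with no detection filter (0.0662). On the Signal the brightest differed by -0.75 (limma adjusted p = 0.0157).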

How the data were processed

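Islet RNA of 8 samples, 4 per strain by their titles, was measured on 8 arrays. The series value table holds intensity values from GCRMA, which the submitters' processing notes name as the authors' tool (version and build not given in the sources used here). GCRMA removes an estimated background and compresses dim probe sets toward a floor. The deposited per-array files hold a scaled Signal intensity and a detection p-value, per the file headers. A probe set counted as detected at a p-value under 0.05, true of 43.7% to 48.1% of probe sets per array.

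Values were log2-transformed without further normalization, and 64 controls were left out. A detection filter (4 or more of the 8 arrays) left 20772 probe sets, which were fitted with limma 3.58.1 (lmFit, eBayes; R 4.3.3) as AKR/J minus C57Bl/6J. P-values were adjusted over all of them by Benjamini-Hochberg, with a threshold of 0.05. GEO's platform annotation gave 1 symbol to 34945 probe sets, several to 932 and none to 9160, and a gene was read from its brightest tested probe set. Signals were floored at the 5th percentile (1.5) before log2. The number of arrays limits the precision.

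Named were all members, up to 4 called genes of each list or its 2 brightest, up to 2 called markers of each cell type, and the 3 genes most like the member of largest spread. The members and lists were chosen with earlier results of these data known. Correlations of Nfkbia with the lists were added after seeing the data. Tested on simulated data for this comparison (20772 probe sets), the fit recovered 2% at a 1.2-fold change, 32% at a 1.5-fold change, 60% at a 2-fold change, 96% at a 4-fold change, with 9 false calls among 104. The simulation changed 50 probe sets at each fold, whereas 2968 were called in the data. Adjustment is stricter when fewer probe sets change, so these shares need not hold for the data. Figures used Python 3.11.15 and matplotlib 3.10.9. Alternatives were other detection filters, the Signal, further normalization or centring, other variance and weighting options, an array split as a block, other choices of probe set, and each array left out.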

Additional observations from a re-analysis of the deposited data

Results flagged for a closer look

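Of 30 groups of 4 arrays (tested member probe sets by strain), 3 held an array whose gap to its nearest neighbour, relative to the group's range, passed Dixon's 95% critical value; chance gives about 5% of groups. AKR/J array 2 was low for Icam1 1424067_at, at 3.41. C57Bl/6J array 7 was low for Nfkbia 1449731_s_at, at 8.92, as it was for 3 other Nfkbia probe sets, and for Tnfaip3 1450829_at, at 2.50, where the whole range of the group was only 0.036 on the log2 scale.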

How the results depend on the processing

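No member passed as higher in AKR/J under any alternative run. The count of members lower in AKR/J was 1 gene and 1 probe set. Both were 0 with either version of the Signal. Over single arrays left out they ran from 0 to 2: 2 genes without array 1, where Tnfaip3 joined, and 0 genes without array 2, 4, 5, 6 or 8. The shares over all genes tested fell as well. With 1 array left out, 5.62% to 8.2% were called lower in AKR/J, against 8.53% with all arrays. For higher calls it was 5.28% to 7.09% against 7.79%. On the quantile-normalized and the scaled Signal, 6.12% and 6.24% of genes were called lower. Of 252 values of single member probe sets under the alternatives, 231 kept their direction and side of the threshold, 7 lost a call (all Tnfrsf1a), 2 gained one and 12 changed sign, none of these called. Rela moved from -0.00068 to 0.036 and 0.035 with the quantile-normalized and the scaled Signal and to 0.038 with quantile normalization, and ran from -0.054 to 0.078 over arrays left out. Nfkbia 1449731_s_at moved to 0.038 and 0.052 with the Signal and ran from -0.53 to 0.033 over arrays left out. Relb ran from -0.82 to 0.090, and Tnfaip3 1450829_at moved to -0.0089 with quantile normalization. Of the other pathway genes, 5 were lower in AKR/J, against 3 with no filter, 3 with either Signal and 3 to 6 over arrays left out; 2 were higher, against 4 with the mean of a gene's probe sets and 2 to 4 over arrays left out. The causes were not tested. No paired analysis was possible because the strains share no sample numbers. With 4 arrays per strain, 2% of simulated 1.2-fold changes were recovered, in a simulation with fewer changed probe sets than were called in the data. Dim probe sets (Icam1, Relb, Nfkb2, Tnfaip3 1450829_at) are measured near background.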
